A study of Homo sapiens with 4 samples.

Results

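The HOX clusters are 4 groups of neighbouring homeobox genes, on human chromosomes 7 (HOXA), 17 (HOXB), 12 (HOXC) and 2 (HOXD). Members were taken from the array table by the gene symbol of the platform annotation, as HOXA, HOXB, HOXC or HOXD followed by a number, with antisense names left out. This gave 28 rows for 26 genes, of 42152 rows and 15073 named genes in all. All 10 HOXB, 8 HOXC and 7 HOXD genes described here carried such a symbol, but for HOXA only HOXA2 did. A further 8 HOXA rows were named through their RefSeq accession and are described beside the members, counted apart, which makes 34 HOX genes. HOXA11, HOXC5, HOXD1 and HOXD11 were not analysed here.

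The study compared cisplatin-resistant CAL-27 cells, 2 arrays, with parental CAL-27 cells, 2 arrays. CAL-27 is a cell line from a human squamous carcinoma of the tongue, and cisplatin is a platinum drug that crosslinks DNA. The resistant cells were made by raising the cisplatin concentration from 1e-07 M to 1e-05 M, and the untreated parent line is their comparison. Total RNA was copied with oligo-dT primers and measured on 1-colour Cy3 arrays. The series text calls the 2 arrays of a group biological replicates. How many selections the resistant arrays represent, and whether drug was present at harvest, are not given in the sources used here. Time in culture and drug selection therefore cannot be told apart.

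HOX genes encode transcription factors that bind DNA through a homeodomain, often together with PBX and MEIS proteins, and that give cells their position along the body axis. In each cluster they lie in the order of their paralogue number, from group 1 at the 3′ end to group 13 at the 5′ end, and in embryos the 3′ genes are switched on first and farthest forward. Adult epithelia keep a pattern of HOX expression that reflects their origin, and Polycomb and Trithorax proteins hold the clusters silent or active.

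In the resistant cells 5 of the 26 HOX genes rose and 0 fell in limma's moderated test across all genes. Of the 5, 4 lie in the HOXB cluster (HOXB4, HOXB5, HOXB6 and HOXB9) and the other is HOXD12. Among the 8 HOXA genes named by accession, HOXA7 fell, 0 rose and 7 did not pass. Over all 15073 genes 3.26% were called higher and 2.83% lower, 6.10% in either direction, at an adjusted p under 0.05. The median difference over the 26 genes was 0.26 on the log2 scale, resistant minus parental, against -0.03 over all genes. At an unadjusted p under 0.05, 10 of the 26 were higher and 2 lower, where 13.8% and 14.4% of all genes were.

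These calls depend on how limma estimates the spread of a gene. The test above shares a single prior variance among all genes. When the prior variance followed intensity, called the intensity prior here, 6 of the 26 genes were higher (HOXB4 to HOXB9) and 2 lower (HOXC13 and HOXD9), against 9.93% and 11.5% of all genes. HOXA7 was lower with both priors. When all 42152 rows were tested together 0.00% of them passed, and 0 HOX genes did. With 2 arrays against 2, an exact two-sided permutation test cannot go below p = 0.333.

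**Figure D1:**
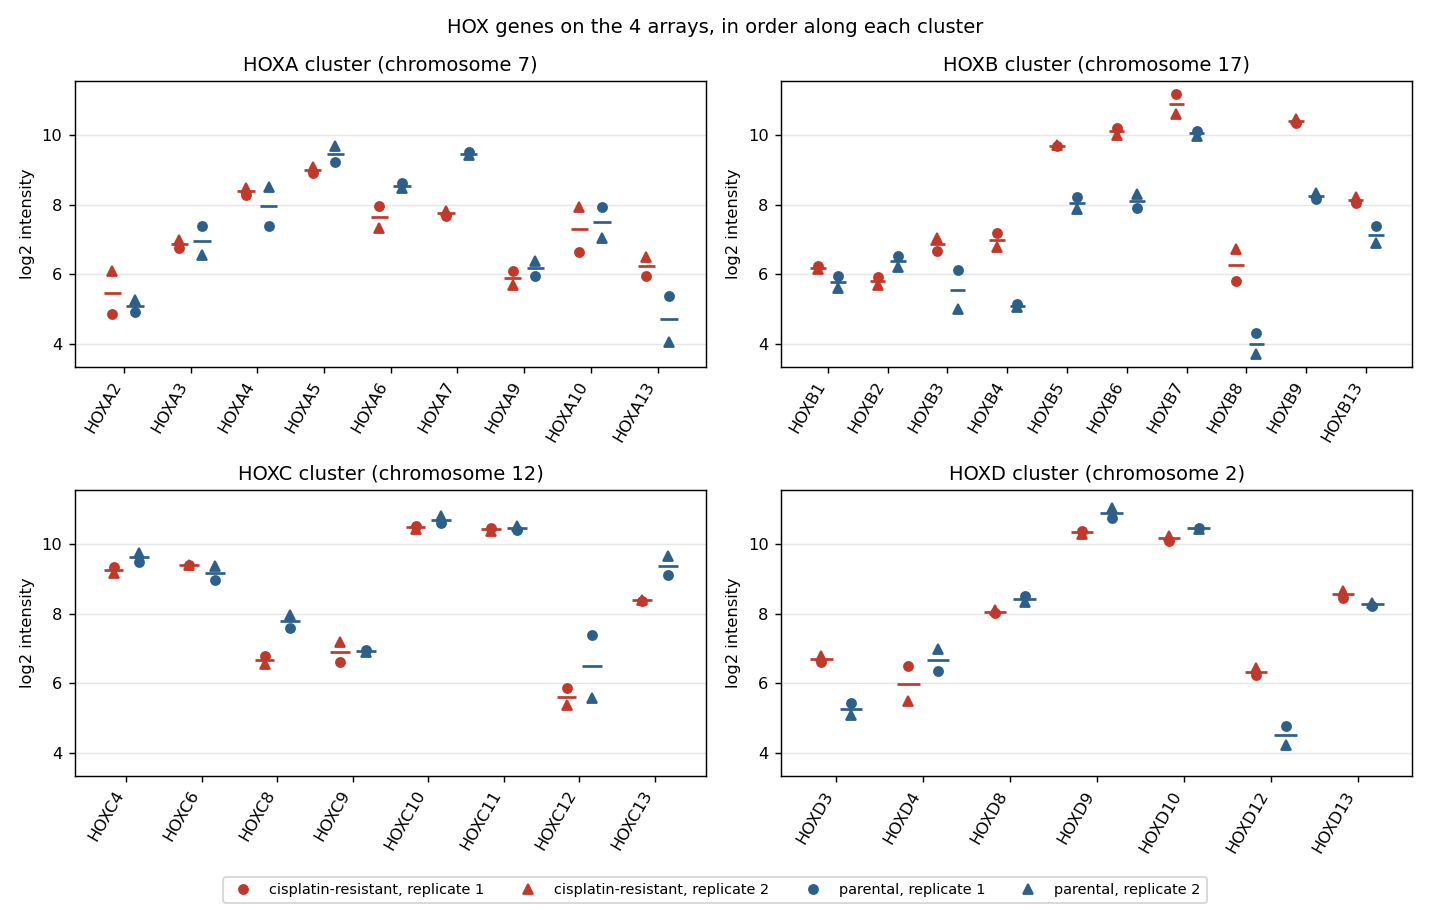
Log2 intensity of 34 HOX genes (vertical axis), with genes in their order along each cluster (horizontal axis). Red marks are cisplatin-resistant arrays and blue marks parental arrays, circles replicate 1 and triangles replicate 2, and short lines are group means. From HOXB3 to HOXB9, a stretch chosen after its values were seen, both resistant arrays lie above both parental arrays for each of the 7 genes. Over all genes this held for 27.9%.

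Both groups did not overlap for 21 of the 26 genes, with the resistant arrays above the parental ones for 13 and below them for 8. Over all genes this held for 59.0%, with 27.9% above and 31.0% below. By cluster, the resistant arrays were above for 9 of 10 HOXB genes, 1 of 8 HOXC genes and 3 of 7 HOXD genes. They were below for 1 HOXB, 4 HOXC and 3 HOXD genes. Among the 9 HOXA genes, HOXA2 included, they were above for 1 and below for 3.

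Precision differed with brightness. Replicates of a gene with a mean log2 intensity of 10 or above differed by 0.27 in resistant and 0.30 in parental arrays (root mean square). Below a mean of 6 the corresponding values were 0.97 and 1.15. Of the 34 HOX genes 17 had a mean under 8 and 6 a mean under 6, and folds of such dim genes are nominal, since no background probes were available to set a floor. Intensities of different genes come from different probes and are not compared with each other.

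HOXB was the cluster with most calls. Of its 10 genes 4 rose, 0 fell and 6 did not pass, and their differences had a median of 1.47 (quartiles 0.88 and 1.98). HOXB9, a posterior gene that patterns the thorax in mice, had log2 intensities of 10.36 and 10.47 in the resistant arrays, against 8.17 and 8.34 in the parental arrays. It rose by 2.16 with limma's SE of 0.19 (n = 2 in each group, adjusted p = 0.0228), which is 4.47-fold. This was the smallest p of the 34 genes, and errors after ± below are the same SE. HOXB6, a central gene, had 10.21 and 10.00 in the resistant arrays, against 7.90 and 8.30 in the parental arrays. It rose by 2.01 ± 0.24 (adjusted p = 0.0350), or 4.02-fold.

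HOXB5, known for its part in lung and enteric nerve development, had 9.68 and 9.71 in resistant arrays, against 8.21 and 7.88 in parental arrays. It rose by 1.65 ± 0.21 (adjusted p = 0.0395), or 3.14-fold. HOXB4, which supports self-renewal of blood stem cells when overexpressed, had 7.19 and 6.78 in resistant arrays, against 5.15 and 5.05 in parental arrays. Its rise was 1.89 ± 0.23 (adjusted p = 0.0368). In all 4 genes both resistant arrays were above both parental ones, as in 27.9% of all genes. The 4 were picked by a test on these same arrays, so this adds no separate support. HOXB4 is dim in parental arrays, so that its 3.70-fold value is nominal.

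The genes between and beside these had differences of the same sign. HOXB8, which can immortalise myeloid progenitors in mice, had 5.81 and 6.73 in the resistant arrays, against 4.30 and 3.72 in the parental arrays. Its difference, 2.26 ± 0.43, was the largest of the 34, with a larger SE than those of the 4 genes above. HOXB8 is dim, with a mean of 5.14, so that this size is nominal. With 50 added to each intensity before taking log2, HOXB8 differed by 0.96, against 1.99 for HOXB9 and 1.83 for HOXB6. HOXB8 did not pass with the constant prior (adjusted p = 0.0678) but did with the intensity prior (adjusted p = 0.0396). HOXB7, a gene often overexpressed in carcinomas, had 11.18 and 10.59 in resistant arrays, against 10.13 and 9.97 in parental arrays. Its difference of 0.84 ± 0.28 passed only with the intensity prior (adjusted p = 0.0231, against 0.160 with the constant prior). HOXB3, a gene of the hindbrain and pharyngeal region, had 6.66 and 7.05 in resistant arrays, against 6.11 and 5.01 in parental arrays. It differed by 1.30 ± 0.45 (adjusted p = 0.172), with parental replicate 2 well below parental replicate 1.

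The 7 consecutive genes from HOXB3 to HOXB9, a stretch chosen after its values were seen, thus all had positive differences, from 0.84 to 2.26 with a median of 1.89. The other 3 HOXB genes, at the ends of the cluster, did not pass. HOXB2, a hindbrain gene next to HOXB3, was the single HOXB gene with a negative difference, -0.57 ± 0.22 (adjusted p = 0.200), with 5.91 and 5.69 in the resistant arrays against 6.52 and 6.22 in the parental arrays. HOXB1, which specifies facial motor neurons, differed by 0.42 ± 0.22 (adjusted p = 0.302). HOXB13, a gene of the prostate and hindgut that lies far from HOXB9 at the 5′ end, differed by 0.99 ± 0.26 (adjusted p = 0.109). Between HOXB9 and HOXB13 lies PRAC1, an unrelated small gene expressed in prostate and colon, which differed the other way, by -1.05 ± 0.29 (adjusted p = 0.118) at dim intensities.

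**Figure D2:**
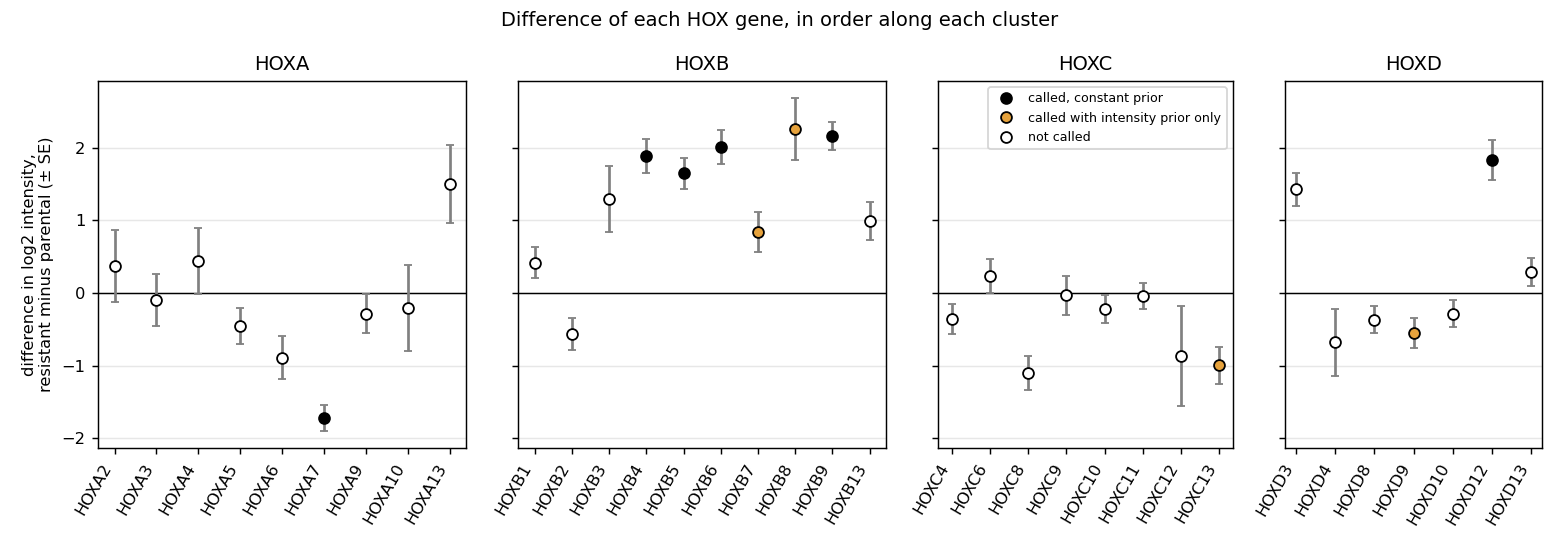
Difference in log2 intensity, resistant minus parental, with limma's standard error (vertical axis) for 34 HOX genes in their order along each cluster (horizontal axis). Black points passed with the constant prior, orange points with the intensity prior only and open points with neither. HOXB4 to HOXB9 lie between 0.84 and 2.26, and HOXA5, HOXA6 and HOXA7 at -0.45, -0.89 and -1.72.

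The clusters also hold miRNA genes, none of which had a named row here, so that their levels were not measured. Mature sequences from RefSeq (GRCh38.p14) are shown because these miRNA genes lie between HOX genes described here and 2 of the sequences share a seed. MIR10A lies between HOXB4 and HOXB5, MIR196A1 between HOXB9 and HOXB13, MIR196A2 between HOXC10 and HOXC9, and MIR196B between HOXA9 and HOXA10. Each is written 5′ to 3′ with its seed, bases 2 to 8, in capitals.
hsa-miR-10a-5p: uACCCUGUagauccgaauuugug
hsa-miR-196a-5p: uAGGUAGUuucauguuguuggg
hsa-miR-196b-5p: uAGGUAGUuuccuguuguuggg
As background, miR-196 is known to cleave HOXB8 mRNA and to repress HOXC8, HOXD8 and HOXA7. The measured differences of these 4 genes were 2.26, -1.11, -0.37 and -1.72, and so not of a single sign.

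In the HOXA cluster HOXA7, a gene linked to the control of keratinocyte differentiation, was the single gene called. It had 7.69 and 7.81 in resistant arrays, against 9.52 and 9.42 in parental arrays. HOXA7 fell by 1.72 ± 0.18 on the log2 scale (adjusted p = 0.0302 with the constant and 0.00176 with the intensity prior), which is 3.30-fold lower. Its neighbours towards the 3′ end had smaller negative differences. HOXA6 had 7.98 and 7.33 in resistant arrays, against 8.61 and 8.48 in parental arrays, a difference of -0.89 ± 0.29 (adjusted p = 0.157). HOXA5, a gene of lung development that can activate the p53 gene, had 8.92 and 9.09 in resistant arrays, against 9.23 and 9.68 in parental arrays, a difference of -0.45 ± 0.25 (adjusted p = 0.321). The groups did not overlap for any of these 3 genes.

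The remaining HOXA genes did not pass with either prior. HOXA13, a gene of the digits and the genital tract, had 5.96 and 6.49 in resistant arrays, against 5.38 and 4.06 in parental arrays. It differed by 1.5 ± 0.54 (adjusted p = 0.178), and the parental arrays lay far apart. HOXA2 (0.38) and HOXA4 (0.44) had positive differences, and HOXA3 (-0.10), HOXA9 (-0.29) and HOXA10 (-0.20) negative ones. The groups overlapped for all 5. HOXA2, which patterns the second branchial arch, was the only HOXA gene with a platform symbol and was dim, with 4.85 and 6.09 in resistant and 4.91 and 5.27 in parental arrays. HOXA9 is a driver gene of myeloid leukaemia and HOXA10 a gene of the uterus. Their SEs were 0.27 and 0.59. Over the 9 HOXA genes the differences had a median of -0.20 (quartiles -0.45 and 0.38), which turned to 0.0104 without resistant replicate 1.

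In the HOXC cluster 0 of 8 genes passed with limma's constant prior. Its median difference was -0.29, and 7 of 8 differences were negative, as were 7787 of 15073 over all genes. At an unadjusted p under 0.05, 0 HOXC genes were higher and 2 lower, where 13.8% and 14.4% of all genes were. HOXC8, a central gene, had 6.78 and 6.56 in resistant arrays, against 7.59 and 7.96 in parental arrays. Its difference of -1.11 ± 0.23 passed with neither prior (adjusted p = 0.0794 and 0.0889). HOXC13, which controls hair and nail keratin genes, had 8.37 and 8.40 in resistant arrays, against 9.12 and 9.64 in parental arrays. It differed by -1.0 ± 0.26 and passed with the intensity prior only (adjusted p = 0.0254, against 0.108 with the constant prior).

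The other HOXC genes passed with neither prior. HOXC10 and HOXC11, posterior genes of the hindlimb region, differed by -0.22 ± 0.19 and -0.04 ± 0.18 at log2 intensities above 10. HOXC9 differed by -0.04 ± 0.27. HOXC12 had 5.85 and 5.37 in resistant arrays, against 7.38 and 5.58 in parental arrays, so its difference of -0.87 ± 0.69 rested on parental replicate 1. HOXC6, which is linked to mammary and prostate tumours, differed by 0.23 ± 0.23.

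HOXC4 and HOXC6 each had 2 rows, for different RefSeq transcripts, and the brighter one stood for the gene. The brighter row of HOXC4 had 9.33 and 9.17 in resistant arrays, against 9.49 and 9.74 in parental arrays, a difference of -0.36. Its dimmer row had 5.97 and 5.82 in resistant arrays, against 7.45 and 7.67 in parental arrays, a difference of -1.66 ± 0.25 (adjusted p = 0.105 over all rows). The rows thus had the same sign and unequal sizes. For HOXC6 the differences were 0.23 in the brighter row and 0.59 in the dimmer one. Transcripts of HOXC4, HOXC5 and HOXC6 overlap, so that rows of these genes may share signal.

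In the HOXD cluster 1 of 7 genes rose, 0 fell and 6 did not pass, with a median difference of -0.28. HOXD12, which acts in the distal limb bud in mice, had 6.23 and 6.43 in resistant arrays, against 4.77 and 4.23 in parental arrays. It rose by 1.83 ± 0.27 (adjusted p = 0.0479), nominally 3.56-fold, since both groups are dim. The call was lost with the intensity prior (adjusted p = 0.0587) and when arrays were centred on their medians (adjusted p = 0.0506). HOXD3, at the other end of the measured genes and known for integrin control, had 6.60 and 6.77 in resistant arrays, against 5.44 and 5.07 in parental arrays. It differed by 1.43 ± 0.23 and passed with neither prior (adjusted p = 0.0523 with the constant and 0.0955 with the intensity prior). HOXD3 is dim as well, with a mean of 5.97.

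The 4 measured genes between these had negative differences. HOXD9, a limb and trunk gene, had 10.38 and 10.28 in resistant arrays, against 10.75 and 11.03 in parental arrays. It differed by -0.55 ± 0.21 and passed only with the intensity prior (adjusted p = 0.0420, against 0.189). HOXD10, a known target of miR-10b, differed by -0.28 ± 0.18, HOXD8 by -0.37 ± 0.19 and HOXD4 by -0.68 ± 0.46. HOXD4 was the only HOXD gene whose groups overlapped. HOXD13, a gene of the digits at the 5′ end, differed by 0.28 ± 0.20.

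Promoters are shown for the 2 genes called here that had an entry in the RefSeq promoter table (GRCh38.p14, 250 bases before to 50 after the start), HOXA7 on the minus and HOXD12 on the plus strand. Both strands of each were searched for TAAT, the core that homeodomains bind, for the PBX-HOX composite TGATNNAT, and for the retinoid receptor half-site AGGTCA. Matches to TAAT are in capitals.
HOXA7, chr7:27156626-27156925: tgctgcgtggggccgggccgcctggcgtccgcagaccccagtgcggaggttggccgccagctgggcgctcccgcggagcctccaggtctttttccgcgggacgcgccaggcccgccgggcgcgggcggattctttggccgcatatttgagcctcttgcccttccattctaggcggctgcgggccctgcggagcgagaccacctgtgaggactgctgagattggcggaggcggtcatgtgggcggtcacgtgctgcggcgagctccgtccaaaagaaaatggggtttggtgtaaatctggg
HOXD12, chr2:176099545-176099844: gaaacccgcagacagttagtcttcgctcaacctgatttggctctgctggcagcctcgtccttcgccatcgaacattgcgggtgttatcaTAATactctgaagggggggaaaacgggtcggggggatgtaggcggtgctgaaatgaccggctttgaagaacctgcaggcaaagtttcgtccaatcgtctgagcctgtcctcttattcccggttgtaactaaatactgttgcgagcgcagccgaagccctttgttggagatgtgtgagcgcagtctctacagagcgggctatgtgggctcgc
The HOXA7 window held 31 CG dinucleotides and 0 matches to TAAT, and the HOXD12 window 19 CG dinucleotides and 1 match. Over 35116 promoters of this length the median was 14 CG dinucleotides, and 50.2% held TAAT. Neither window held TGATNNAT or AGGTCA, which 7.40% and 13.8% of all promoters did.

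Set side by side by paralogue group, genes of the same number had differences of unlike sign in most groups named here. Group 9 held HOXB9 at 2.16, HOXA9 at -0.29, HOXC9 at -0.04 and HOXD9 at -0.55. In group 7 HOXB7 differed by 0.84 and HOXA7 by -1.72, and in group 8 HOXB8 by 2.26, HOXC8 by -1.11 and HOXD8 by -0.37. In group 10 all 3 measured genes, HOXA10, HOXC10 and HOXD10, lay between -0.28 and -0.20. By position, the median difference was 0.40 for 6 anterior genes (groups 1 to 3), -0.07 for 14 central genes (groups 4 to 8) and -0.12 for 14 posterior genes (groups 9 to 13). All 6 anterior genes had a mean under 8, against 4 central and 7 posterior genes. None of the anterior genes passed with either prior. Within the central groups, HOXB had a median of 1.89 (5 genes), against -0.67 in HOXA (4 genes), -0.36 in HOXC (3 genes) and -0.52 in HOXD (2 genes).

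Lists of genes that act with or on HOX genes were counted in the same fit. For comparison, 3.26% of all genes were called higher and 2.83% lower. With the intensity prior the shares were 9.93% and 11.5%, and at an unadjusted p under 0.05 13.8% and 14.4%. The same shares apply to each list below. Of the 5 measured cofactor genes of the PBX, MEIS and PKNOX families 0 passed with limma (1 at an unadjusted p under 0.05). MEIS2 had the smallest p, at -1.17 ± 0.41, and passed with the intensity prior only (adjusted p = 0.0383, against 0.175), but its 3 rows ranged from -1.17 to -0.28. PBX4 differed by 0.38, MEIS1 by -0.53 and PBX2 by 0.24. In the retinoic acid and CDX list, whose genes can switch HOX clusters on, 2 of 20 fell and 0 rose (4 lower and 2 higher with the intensity prior, 6 lower and 3 higher at an unadjusted p under 0.05). The 2 were the retinoid receptor genes RARG, with 10.15 and 10.37 in resistant arrays against 12.25 and 12.38 in parental arrays, and RXRA, with 10.54 and 10.62 in resistant arrays against 12.12 and 11.93 in parental arrays. RARG fell by 2.05 ± 0.20 (adjusted p = 0.0266, with its other row at -1.50) and RXRA by 1.45 ± 0.19 (adjusted p = 0.0408).

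Among 19 Trithorax, H3K27 demethylase, CTCF and cohesin genes 2 rose and 0 fell (4 higher and 1 lower with the intensity prior). Of all genes 3.26% were called higher and 2.83% lower, and 9.93% and 11.5% with the intensity prior. KMT2A, the methyltransferase that keeps HOX genes active, had 11.18 and 11.04 in resistant arrays, against 9.30 and 9.54 in parental arrays. It rose by 1.69 ± 0.20 (adjusted p = 0.0354). SMC1A, a cohesin subunit, rose by 1.63 ± 0.19 (adjusted p = 0.0343). Of 22 Polycomb genes, whose products silence HOX clusters, 0 passed (5 higher and 0 lower at an unadjusted p under 0.05, and 5 higher and 1 lower with the intensity prior). EZH1 (1.11 ± 0.18, adjusted p = 0.0538), PCGF5 (1.33, adjusted p = 0.0729), PCGF2 (1.01, adjusted p = 0.0763) and CBX7 (0.82, adjusted p = 0.101) had the smallest p. The median difference was 0.26 for Polycomb genes, -0.05 for the Trithorax list and -0.53 for the retinoic acid list.

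Genes flanking the clusters gave 0 calls among 19, where 6.10% of all genes were called, with a median difference of -0.04. Both at an unadjusted p under 0.05 and with the intensity prior 2 were higher and 1 lower. The shares of all genes were 13.8% and 14.4% unadjusted, and 9.93% and 11.5% with the intensity prior. Besides PRAC1, the smallest p belonged to CBX1 (0.70), SKAP2 (0.61) and COPZ1 (-0.65). Next to the HOXB cluster, SKAP1 differed by 0.76, SNX11 by 0.13 and NFE2L1 by -0.37 beyond HOXB1, where CBX1 also lies, and CALCOCO2 by 0.52 beyond HOXB13. The groups did not overlap for SKAP1, CBX1 and NFE2L1 and overlapped for SNX11 and CALCOCO2, where 59.0% of all genes did not overlap. Of 19 listed long non-coding RNAs of the clusters 2 had a named row and 0 passed. HOXA11-AS differed by 0.43 ± 0.23 (adjusted p = 0.314) and HOTAIR, transcribed from the HOXC cluster, by 0.20 ± 0.44 (adjusted p = 0.810). The arrays do not separate strands, because both strands of the cDNA carried dye. Signal of HOXB3, HOXA3 and other genes with antisense partners may therefore include these.

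Of 65 homeobox genes outside the clusters 1 rose and 2 fell (7 higher and 3 lower with the intensity prior), with a median difference of -0.11. These counts are near or below the shares over all genes, 3.26% higher and 2.83% lower (9.93% and 11.5% with the intensity prior). DLX3, a regulator of terminal epidermal differentiation, had 5.80 and 5.93 in resistant arrays, against 9.13 and 8.98 in parental arrays, and fell by 3.19 ± 0.19 (adjusted p = 0.0165). IRX4, a ventricle gene of the heart, fell by 3.45 ± 0.19 (adjusted p = 0.0165). GSC, a homeobox gene of the embryonic organizer, rose by 1.72 ± 0.26 (adjusted p = 0.0491, but 0.0756 under the intensity prior).

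**Figure D3:**
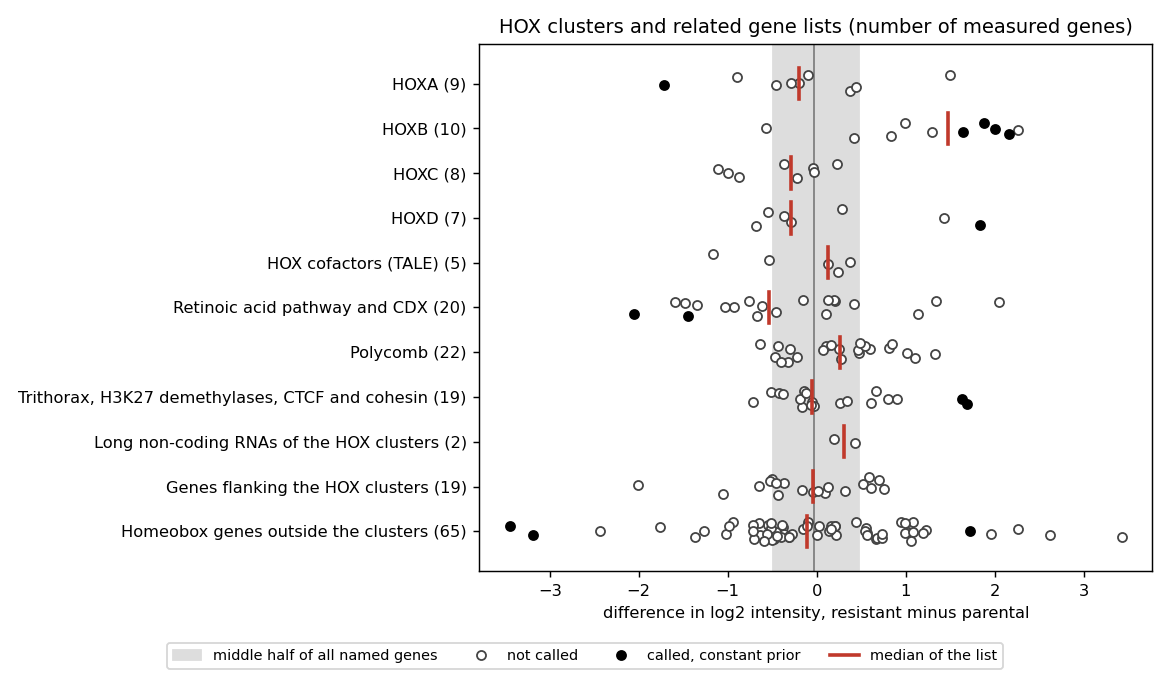
Difference in log2 intensity, resistant minus parental (horizontal axis), for each measured gene of the 4 HOX clusters and of related lists (vertical axis, number of genes in brackets). Black points passed with the constant prior, red bars are medians and the grey band spans the quartiles of all genes, -0.49 and 0.48. The HOXB median lies at 1.47, and those of the other 3 clusters between -0.29 and -0.20.

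Other markers differed between the groups as well, and their calls stand beside 3.26% of all genes higher and 2.83% lower. With the intensity prior these shares were 9.93% and 11.5%, and at an unadjusted p under 0.05 13.8% and 14.4%. Of 15 measured markers of squamous epithelium 9 fell and 0 rose (13 lower and 0 higher with the intensity prior), namely KRT14, PKP1, KRT6A, KRT6B, KRT16, DSC3, DSG3, COL17A1 and TP63, with differences from -6.91 to -2.33. The summed intensity of all 15 was 115279 to 120465 in resistant arrays, against 330282 to 341308 in parental arrays. The 6 markers not called made up 107599 to 113011 in resistant and 176818 to 181249 in parental arrays. Of 12 markers of simple epithelium CLDN3 rose and AGR2 fell (6 higher and 1 lower with the intensity prior), with sums of 75843 to 78336 in resistant and 45121 to 49117 in parental arrays. COL1A1 was the single call among 6 fibroblast markers, of which 4 had negative differences. Their sums were 1717 to 2053 in resistant and 368 to 396 in parental arrays, and without COL1A1 171 to 207 in resistant and 185 to 215 in parental arrays. CDH5 was the single call among 7 endothelial markers, of which 3 had negative differences. Their sums were 895 to 1151 in resistant and 367 to 455 in parental arrays, and without CDH5 336 to 485 in resistant and 353 to 430 in parental arrays. Of 11 leukocyte markers 0 passed (1 higher and 1 lower at an unadjusted p under 0.05), with sums of 4829 to 5020 in resistant and 4634 to 5022 in parental arrays. An array gives no value of 0, and the part of these genes in the HOX differences was not tested. In RNA of whole cultures, more cells with a HOX transcript and more transcript per cell cannot be told apart.

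Leaving out an array leaves 1 residual degree of freedom, and with the constant prior 0 HOX genes then passed, whichever array was left out. With the intensity prior HOXB5, HOXB6, HOXB9 and HOXA7 passed without each of the 4 arrays in turn. HOXB4 passed in 0 of these 4 cases (adjusted p from 0.0539 to 0.244). The differences themselves ran from 2.07 to 2.25 for HOXB9, from 1.81 to 2.21 for HOXB6, from 1.48 to 1.82 for HOXB5 and from -1.78 to -1.66 for HOXA7. HOXB8 ranged more widely, from 1.80 without resistant replicate 2 to 2.72 without resistant replicate 1, and HOXB7 from 0.54 to 1.13.

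**Figure D4:**
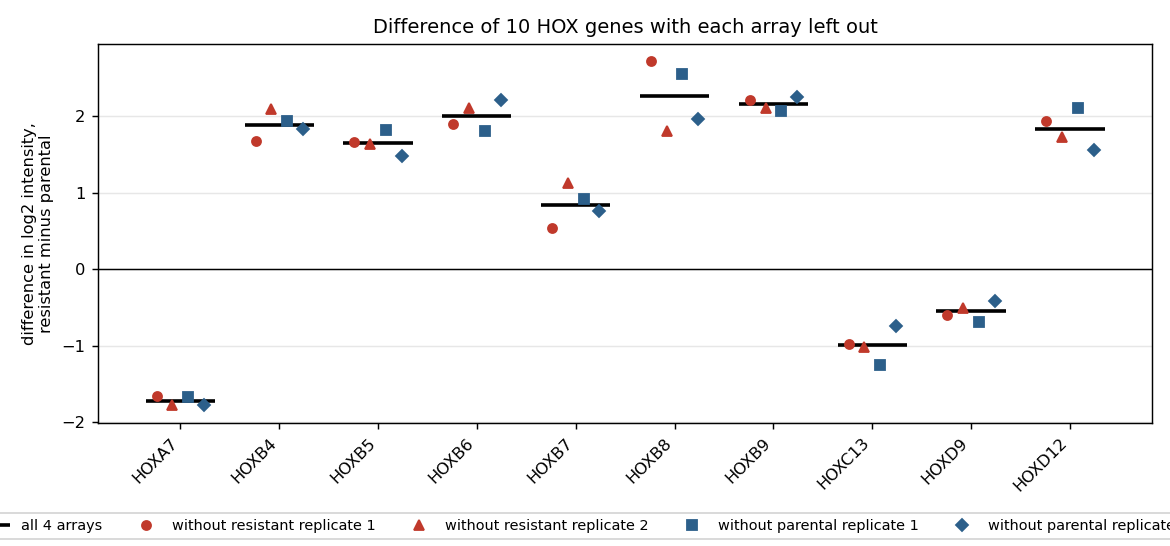
Difference in log2 intensity, resistant minus parental (vertical axis), of the 10 HOX genes that passed with either prior (horizontal axis). Black lines use all 4 arrays, red marks leave out a resistant array and blue marks a parental array. The groups did not overlap for any of the 10 genes, so that leaving out an array could not change a sign. HOXB9 stayed between 2.07 and 2.25.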

How the data were processed

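RNA of 2 cisplatin-resistant and 2 parental CAL-27 cultures was measured on NimbleGen 1-colour arrays. The deposited values are normalized intensity values, not logarithms, judging by their range (array medians from 141.2 to 149.9), and were made with RMA per the submitters' processing notes. Its version, the row filter and the genome build are not given in the sources used here. Array number limits the precision.

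Values were taken to log2 without further scaling. Rows were named by the platform annotation (17899 rows, symbols updated through Entrez identifiers) or through RefSeq accessions (674 rows). The row with the highest mean stood for a gene. The fit used lmFit and eBayes of limma 3.58.1 (R 4.3.3) with a constant prior variance. No covariate entered, and p-values were adjusted over all genes by Benjamini-Hochberg, with a threshold of 0.05. The scripts were tested on simulated data. Gene order came from a RefSeq table of GRCh38.p14.

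A HOXA gene with a row is not reported here and enters none of the HOX counts. Every other HOX gene with a named row is named. Values in every array are given for genes that passed with either prior and for others that differed by at least 1 without overlap, and for some further genes added after their values were seen. From each list, genes that passed or otherwise up to 4 with the smallest p are named, and SKAP1, SNX11, NFE2L1 and CALCOCO2, the other measured neighbours of HOXB, were added after their values were seen. The members and lists were chosen with earlier results of these data known. Alternatives changed the prior variance, scaling, choice of row, level of the test, filter, pseudocount, moderation, replicate block and arrays used.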

Additional observations from a re-analysis of the deposited data

How the results depend on the processing

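With 2 arrays per group and no background probes, small differences of dim genes are not resolved. The counts of HOX genes higher and lower (5 and 0), and of all genes higher and lower (492 and 427), became 0 when all rows were tested together, with the unmoderated test with unequal variances and with a replicate block. The block fit had 1 residual degree of freedom. The replicate numbers mark no shared batch in the labels, and deviations of same-numbered arrays correlated at 0.142 over genes. With the intensity prior 2 HOX genes were lower, and all genes called were 1497 higher and 1737 lower. With only genes of mean 6 or above, 1 HOX gene (HOXC8) was lower, and 1072 and 1048 genes were called higher and lower, against 1087 and 1025 with log2(intensity + 50). With 1 array left out, under either prior, HOX counts ranged from 0 to 4 higher and from 0 to 2 lower, and all genes from 0 to 1356 higher and from 0 to 1441 lower. With the constant prior each of these counts was 0. With the intensity prior, leaving out resistant replicate 1, resistant replicate 2, parental replicate 1 and parental replicate 2 in this order gave 3, 4, 3 and 3 HOX genes higher, 800, 821, 1356 and 1306 of all genes higher, and 1099, 1149, 1441 and 1098 lower. The cause of these shifts was not tested, except that fewer residual degrees of freedom follow from the block and from leaving out an array.

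The HOXB median was 0.88 with log2(intensity + 50), which shrinks dim differences by construction, and from 1.12 to 1.81 with 1 array left out. The HOXA median ranged from -0.25 to 0.01 with 1 array left out. The HOXC median was -0.55 with the mean of all rows of a gene, in which the dimmer HOXC4 row counts, and from -0.35 to -0.18 with 1 array left out. The HOXD median was -0.36 after median centring, -0.37 for genes of mean 6 or above, and from -0.30 to -0.18 with 1 array left out. HOXD12 was the single HOX call lost after median centring, and HOXD3 passed with log2(intensity + 50) (adjusted p = 0.0449) and with the mean of all rows (adjusted p = 0.0476). With all 4 arrays 0 of 34 differences changed sign. With 1 array left out 7 did. The groups of all 7 overlapped, and without overlap leaving out 1 array cannot change a sign. HOXA2 ranged from -0.25 to 1.00, HOXA3 from -0.52 to 0.32 (0.0104 without resistant replicate 1), HOXA4 from -0.13 to 1.01, HOXA10 from -0.85 to 0.44, HOXC9 from -0.32 to 0.25 (0.000418 without parental replicate 1), HOXC11 from -0.0921 to 0.0127 and HOXC12 from -1.77 to 0.0269.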
